A study of Homo sapiens with 6 samples.

Results

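The integrins and focal adhesion proteins described here are 35 genes, listed by name for their roles: 9 integrin chains outside the hemidesmosome, and 26 adaptors, actin linkers and kinases of the focal adhesion. Estimated read counts were summed per gene over its Ensembl transcripts. Transcripts of 34 of the 35 genes were found among the 34486 genes with matched transcripts, and all 34 passed the expression filter and were tested. None of the 10 annotated transcripts of the zyxin gene ZYX was matched, so that ZYX was not analysed here. The counts of ACTN4 rest on 3 of its 11 annotated transcripts, those of BCAR1 on 11 of 22 and those of LPP on 21 of 23, so that their values are partial sums.

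The cells were MCF10A, an established non-tumorigenic line of human breast epithelium with the genotype labelled WT, and both groups grew in one medium with horse serum, EGF, insulin, hydrocortisone and cholera toxin. They were reverse-transfected with 10 nM siRNA, either a pool against the tumour suppressor PDCD4 (siPDCD4) or a control (siCT), the medium was replaced after 6 h, and total RNA was sequenced at 48 h in 3 libraries per group. Since the labels do not say whether these came from separate cultures, the p-values cover no more than the variation among these 6 libraries, and this may be technical. The series asks how loss of PDCD4 affects gene expression and cell adhesion. The comparison below gives RNA levels of the adhesion machinery at 48 h, and neither its proteins nor adhesion itself can be read from these libraries.

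Integrins are receptors made of one alpha and one beta chain that span the plasma membrane and bind matrix proteins such as collagen, laminin and fibronectin. Inside the cell, talins and kindlins bind the beta tail and switch the receptor on, while vinculin, alpha-actinin and filamin tie it to actin filaments. The kinases FAK and SRC and the scaffold paxillin then pass the signal on. In breast epithelium this machinery anchors cells to the basement membrane and is used in spreading and migration.

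The linkers named above attach to the short tails of the integrin chains inside the cell, and the last coding exon encodes at least the end of each tail. The bases below are shown because the account that follows turns on these chains, and because the adaptors among the 34 genes meet the receptors here. They are the coding bases of the canonical transcript on the strand of the gene, 5′ to 3′ up to the stop codon, read from GRCh38 with GENCODE annotation. In the beta chains, capitals mark the codons of the motif asparagine-proline-any-tyrosine (NPxY). Which adaptor binds each marked site is not shown by the bases. In the alpha chains they mark the motif GFFKR. Related sites of the beta chains with another residue in place of the proline were not searched for and are left unmarked. ITGB1 lies at chr10:32901570-32901635 on the minus strand, ITGB5 at chr3:124763623-124763718 on the minus strand, ITGB6 at chr2:160101736-160101834 on the minus strand and ITGB8 at chr7:20409878-20409997 on the plus strand. ITGA1 lies at chr5:52952407-52952451 on the plus strand and ITGA5 at chr12:54396293-54396376 on the minus strand, and these alpha chains were chosen because they had the smallest p-values of the 5.
ITGB1: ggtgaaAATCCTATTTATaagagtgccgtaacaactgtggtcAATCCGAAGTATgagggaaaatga
ITGB5: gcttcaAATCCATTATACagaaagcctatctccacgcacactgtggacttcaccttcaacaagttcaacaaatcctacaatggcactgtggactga
ITGB6: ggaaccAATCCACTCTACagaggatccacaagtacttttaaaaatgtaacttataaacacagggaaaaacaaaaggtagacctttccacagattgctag
ITGB8: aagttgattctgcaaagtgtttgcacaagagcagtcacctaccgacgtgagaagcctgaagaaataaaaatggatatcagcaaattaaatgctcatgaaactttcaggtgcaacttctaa
ITGA1: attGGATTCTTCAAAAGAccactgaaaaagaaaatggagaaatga
ITGA5: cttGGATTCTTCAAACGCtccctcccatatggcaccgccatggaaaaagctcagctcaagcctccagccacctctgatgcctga

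ITGB1 held 2 NPxY motifs in frame, ITGB5 and ITGB6 held 1 each, and none was found in this window of ITGB8. Of 19790 protein-coding genes, 0.323% held an NPxY motif in frame within the last 120 coding bases. All 5 alpha chains held GFFKR in that window, against 0.0606% of the same genes.

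Totals of estimated counts lay between 13410441 and 21828931 per library. PDCD4 itself was at 9.15, 7.43 and 8.62 CPM (normalised counts scaled to library size) in siPDCD4 replicates 1 to 3 and at 90.4, 89.0 and 61.1 CPM in siCT, and fell by 3.25 ± 0.17 on the log2 scale (SE; edgeR quasi-likelihood test, adjusted p = 2.15e-05). The control library siCT replicate 3 had the lowest total and stood apart from the other 5 on the first principal component. For several genes the value is therefore given with and without it. All 10 epithelial and basal markers checked were at or above 1 TPM (a level per transcript length) in every library. Endothelial and fibroblast markers summed to at most 0.743 and 2.39 TPM. The 6 leukocyte markers summed to 8.33 to 11.1 TPM in siCT and 12.7 to 15.3 TPM in siPDCD4, almost wholly from CD14 and ITGB2, while CD3E was at 0 in all libraries, and the part of this difference in the results below was not tested.

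None of the 34 genes passed the threshold, an FDR of 5% over the 13047 genes tested with edgeR, while 0.429% of all genes did. The count was 4 of 34 at an unadjusted p under 0.05, or 11.8%, against 8.62% of all genes, and the 4 were ITGB1, CAV1, ITGA1 and ITGA5. DESeq2 called 1 of the 34, ITGB1, and 1.41% of all genes. The gene closest to the threshold in edgeR was therefore the beta 1 integrin chain, with an adjusted p of 0.0541.

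The fold changes of the 34 genes were small and lay on both sides of 0. There were 20 below 0 and 14 above, a share of 58.8% below 0 where all genes gave 51.3%. The median log2 fold change was -0.05 for the 34 genes and -0.01 for all genes, and the median size without regard to sign was 0.11 for both. In bulk RNA, fewer cells of a type and less RNA per cell cannot be told apart. For 22 of the 34 genes the 95% interval of the log2 fold change lay wholly within 0.5 of 0, and for 31 it lay within 1 of 0. The exceptions to the latter were ITGA5, TLN2 and BCAR1.

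**Figure D1:**
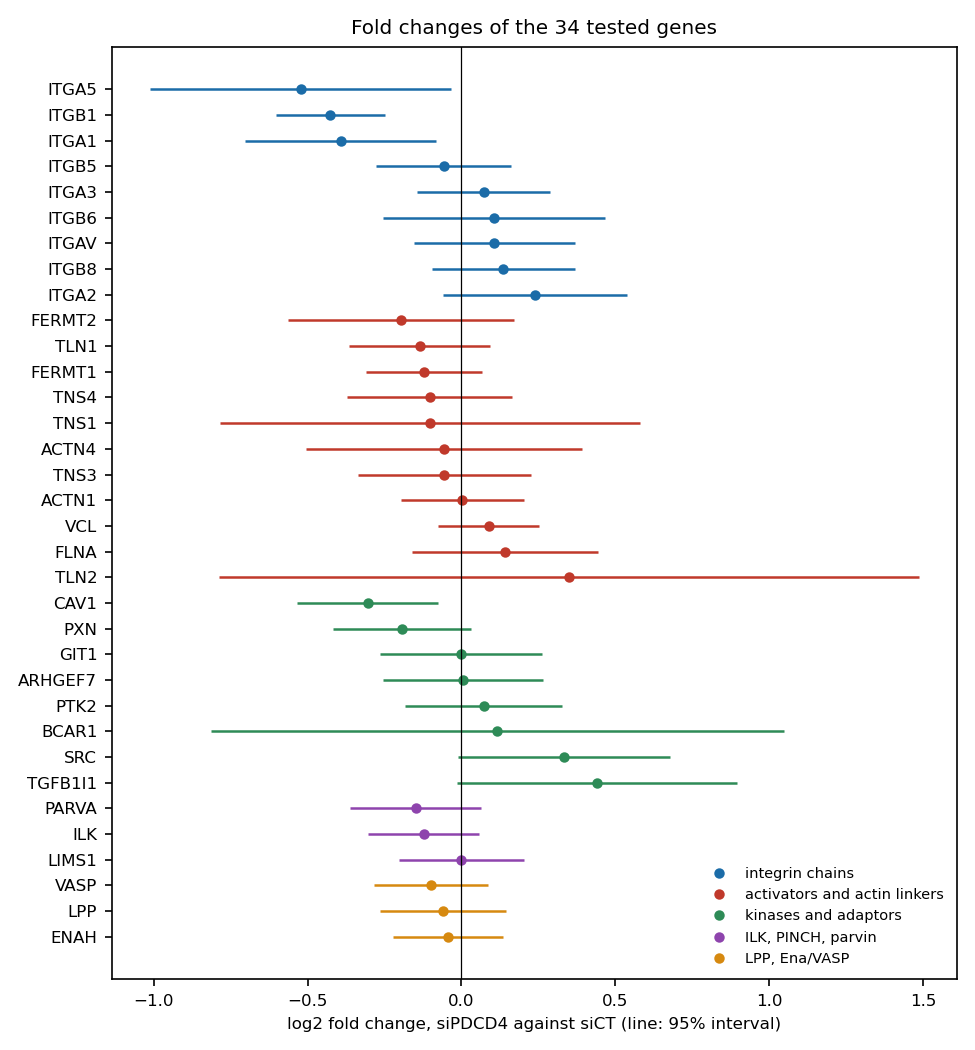
Log2 fold change of each of the 34 tested genes, siPDCD4 against siCT (points), with its 95% interval from edgeR (lines), coloured by role. Only the intervals of ITGA5, ITGB1, ITGA1 and CAV1 leave out 0, all on the side below it, and those of TLN2, BCAR1 and TNS1 are the widest.

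ITGB1, the beta chain shared by the collagen, laminin and fibronectin receptors, was the most abundant integrin chain in both groups. It was at 1346, 1261 and 1252 CPM in siCT replicates 1 to 3 and at 941, 941 and 988 CPM in siPDCD4 replicates 1 to 3. All 3 siPDCD4 libraries thus lay below all 3 controls, and the gap between the groups was wider than the spread within either. The log2 fold change was -0.43 ± 0.08 with a 95% interval from -0.60 to -0.25, a difference of -25.6%, at an adjusted p of 0.0541 (edgeR). The direction held whichever library was left out, from -0.45 to -0.39 on the log2 scale. With siCT replicate 3 left out the adjusted p was 0.0321, and with any other library left out it lay between 0.0880 and 0.345 (edgeR).

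Whether ITGB1 was called turned on the way of testing rather than on the size of its difference, which stayed between -0.43 and -0.42 with all 6 libraries. It passed in 7 of the 10 other analyses of these libraries, with adjusted p-values of 4.23e-06 in DESeq2, 0.0319 in limma-voom, 0.0274 without the expression filter and 0.0275 without the length offset. With RLE factors it was at 0.0501 and with a minimum of 10 counts in every library at 0.0554 (edgeR).

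**Figure D2:**
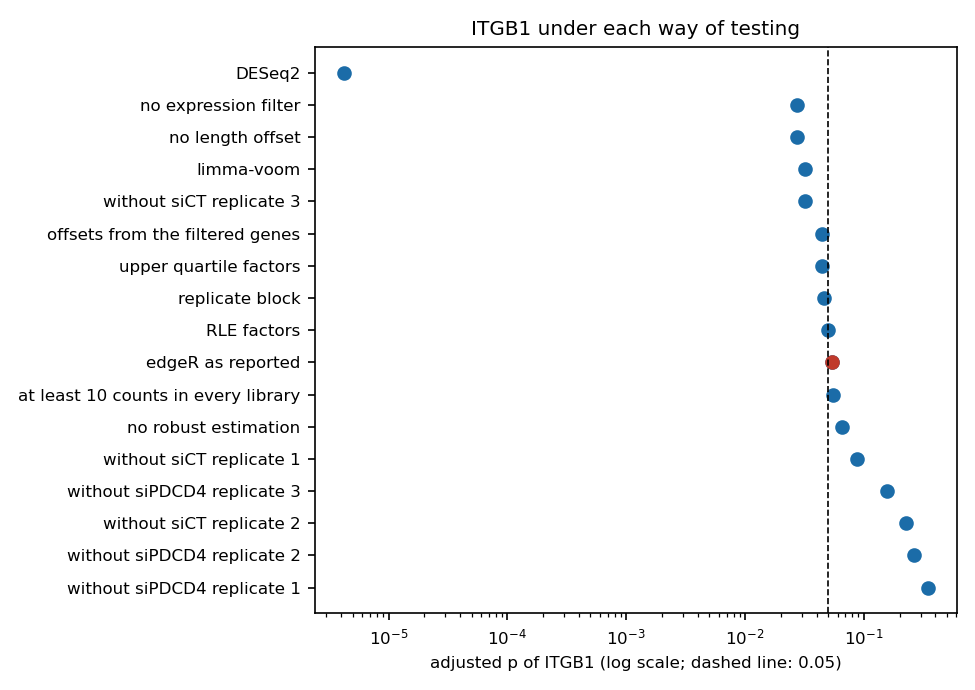
Adjusted p of ITGB1 (log axis) in edgeR as reported (red) and under each alternative, 1 point each, with the threshold of 0.05 as a dashed line. The value reported, 0.0541, is just above the threshold, DESeq2 is far below it at 4.23e-06, and leaving out siPDCD4 replicate 1 gives the highest value, 0.345.

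The alpha chains that pair with ITGB1 did not share 1 pattern. ITGA1, a collagen receptor chain, was at 43.8, 39.1 and 52.5 CPM in siCT and 29.1, 35.3 and 38.8 CPM in siPDCD4, with a log2 fold change of -0.39 ± 0.14 (adjusted p = 0.409, edgeR, and -0.27 without siCT replicate 3). Its groups did not overlap, but the closest libraries were less than 1 CPM apart. ITGA5, the fibronectin receptor chain, was at 312, 319 and 489 CPM in siCT and 237, 220 and 322 CPM in siPDCD4 (log2 fold change -0.52 ± 0.21, adjusted p = 0.534, edgeR). The groups of ITGA5 overlapped. Its siCT replicate 3 was far above the other controls, and siPDCD4 replicate 3 was likewise the highest of its group. Without siCT replicate 3 the log2 fold change was -0.28 (adjusted p = 0.548, edgeR). ITGA5 was called in 1 of the 10 other analyses of all 6 libraries, a fit with a replicate block that is given at the end.

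ITGA2, which makes another collagen receptor with ITGB1, was at 131, 123 and 152 CPM in siCT and 146, 138 and 195 CPM in siPDCD4 (log2 fold change 0.24 ± 0.13, and 0.08 without siPDCD4 replicate 3). ITGA3, the laminin receptor chain of this set, was at 519, 483 and 586 CPM in siCT and 520, 543 and 605 CPM in siPDCD4 (0.07 ± 0.10, and 0.15 without siCT replicate 3). ITGAV, which pairs with several beta chains, was at 190, 179 and 215 CPM in siCT and 202, 180 and 245 CPM in siPDCD4 (0.11 ± 0.12). The groups of all 3 overlapped, and siPDCD4 replicate 3 was the highest of the 6 libraries for each.

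The beta chains that pair with ITGAV were close between the groups. ITGB5 was at 93.1, 94.9 and 95.5 CPM in siCT and 104, 86.2 and 82.2 CPM in siPDCD4 (log2 fold change -0.06 ± 0.10). ITGB6, an epithelial chain known for activating latent TGF-beta, was at 48.0, 46.9 and 59.3 CPM in siCT and 48.5, 46.9 and 70.2 CPM in siPDCD4 (0.11 ± 0.16). ITGB8, the chain without an NPxY motif in the window above, was at 168, 170 and 178 CPM in siCT and 176, 169 and 221 CPM in siPDCD4 (0.14 ± 0.11, and 0.02 without siPDCD4 replicate 3). Each of these groups overlapped. Over the 9 chains, 8 were highest in replicate 3 within siCT and 8 within siPDCD4, the exceptions being ITGB1 in siCT and ITGB5 in siPDCD4.

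**Figure D3:**
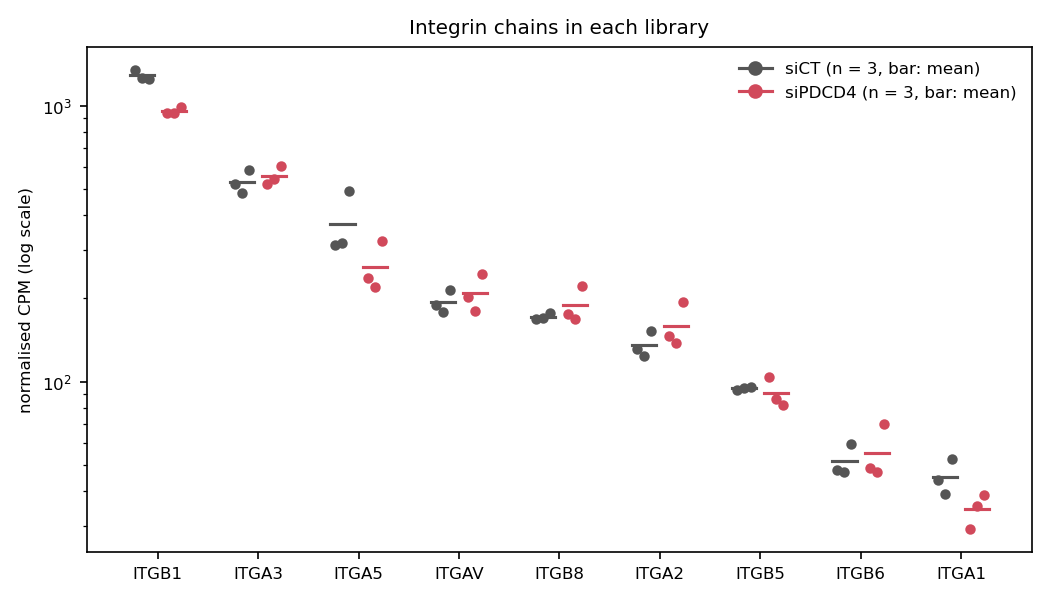
Normalised CPM (log axis) of the 9 integrin chains in each library (points, 3 per group) with the group means (bars). ITGB1, between 941 and 1346 CPM, is the chain with the clearest gap between the groups, while siCT replicate 3 is the high point of ITGA5 at 489 CPM.

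Levels may be compared between chains only per length, in TPM. ITGB1 was at 323 ± 14.2 TPM in siCT and 244 ± 5.11 TPM in siPDCD4 (SD, n = 3). The 5 alpha chains summed to 316 ± 39.2 TPM in siCT and 305 ± 34.8 TPM in siPDCD4. ITGB1 made up 79.8% ± 1.07 of the summed TPM of the 4 beta chains in siCT and 74.5% ± 1.25 in siPDCD4, with 78.8% as the lowest control and 75.7% as the highest siPDCD4 library. These sums were chosen after the values of the chains were seen and are given as a description.

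Among the integrin activators, neither talin nor kindlin genes passed. TLN1, the main talin, was at 400, 428 and 510 CPM in siCT and 399, 436 and 382 CPM in siPDCD4 (log2 fold change -0.14 ± 0.10, and -0.03 without siCT replicate 3). FERMT1, the epithelial kindlin, was at 107, 102 and 94.3 CPM in siCT and 92.0, 97.1 and 89.6 CPM in siPDCD4 (-0.12 ± 0.09). FERMT2, the kindlin of most adherent cells, had a log2 fold change of -0.20 ± 0.16, and of -0.07 without siCT replicate 3. All 3 had overlapping groups. TLN2, a second talin, was low at 1.10 TPM in siCT, and its log2 fold change of 0.35 ± 0.48 rested on siPDCD4 replicate 1, where it was at 20.4 CPM against 5.85 to 10.7 CPM in the other 5 libraries. Without that library it was -0.36.

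Of the linkers to actin, VCL stood out for its narrow spread. Vinculin, its product, reinforces the bond between talin and actin. VCL was at 369, 367 and 372 CPM in siCT and 384, 389 and 406 CPM in siPDCD4, so that the groups did not overlap, yet the log2 fold change was only 0.09 ± 0.07 (adjusted p = 0.875, edgeR). FLNA, the actin crosslinker filamin A, had 0.14 ± 0.14, and the alpha-actinin genes ACTN1 and ACTN4 had 0.00 ± 0.09 and -0.06 ± 0.20. The tensin genes TNS3 and TNS4, whose products bind beta tails, had -0.06 ± 0.13 and -0.10 ± 0.12, and TNS1, at 0.942 TPM in siCT, had -0.10 ± 0.31. Without siCT replicate 3, FLNA was at 0.28, ACTN1 at 0.09 and ACTN4 at 0.11, and TNS3 and TNS4 were at 0.06 and 0.04. With all 6 libraries, 7 of these 11 activators and linkers were below 0 and 4 above. Their median was then -0.06 and their range from -0.20 to 0.35.

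Among the kinases and signalling adaptors the lowest value belonged to CAV1, which codes for caveolin 1, a membrane scaffold that links integrins to SRC-family kinases. CAV1 was at 1016, 924 and 808 CPM in siCT and 738, 805 and 684 CPM in siPDCD4, with a log2 fold change of -0.30 ± 0.10 (adjusted p = 0.375 in edgeR and 0.170 in DESeq2). The groups touched, 808 CPM in the lowest control against 805 CPM in the highest siPDCD4 library. Without siCT replicate 3, its lowest control, the log2 fold change was -0.39 (adjusted p = 0.132, edgeR).

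The highest values in this group were those of TGFB1I1 and SRC. TGFB1I1, which codes for the paxillin relative Hic-5, was at 6.63, 8.51 and 11.1 CPM in siCT and 10.0, 13.2 and 12.1 CPM in siPDCD4 (log2 fold change 0.44 ± 0.21, adjusted p = 0.593, edgeR, and 0.14 without the length offset). SRC was at 25.0, 30.7 and 40.1 CPM in siCT and 39.8, 37.5 and 42.5 CPM in siPDCD4 (0.33 ± 0.16, adjusted p = 0.594, edgeR). In both, siCT replicate 3 lay within the range of the siPDCD4 libraries, and without it the log2 fold changes were 0.64 and 0.52, with adjusted p-values of 0.273 and 0.168 (edgeR). Without siCT replicate 1, the lowest control for both, they were 0.27 and 0.18, each at an adjusted p of 0.845 (edgeR). PXN, which codes for paxillin, was at 116, 138 and 137 CPM in siCT and 118, 122 and 102 CPM in siPDCD4 (-0.19 ± 0.10, and -0.11 without siPDCD4 replicate 3), with overlapping groups.

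PTK2, the gene of focal adhesion kinase, had a log2 fold change of 0.07 ± 0.12 with a 95% interval from -0.18 to 0.33. GIT1 and ARHGEF7, whose products form the complex that brings PAK kinases to adhesions, had 0.00 ± 0.12 and 0.01 ± 0.12. BCAR1, the gene of the FAK and SRC substrate p130Cas, had 0.12 ± 0.39, and 0.35 without siCT replicate 3. Its libraries ran from 14.5 to 31.4 CPM in siCT and from 14.8 to 33.8 CPM in siPDCD4.

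ILK, PARVA and LIMS1 code for integrin-linked kinase, alpha-parvin and PINCH1, the parts of 1 complex at the beta tail. ILK was at 69.7, 70.5 and 70.7 CPM in siCT and 64.6, 64.2 and 64.9 CPM in siPDCD4, with little spread in either group and no overlap. Its log2 fold change was -0.12 ± 0.08 with a 95% interval from -0.30 to 0.06 (adjusted p = 0.801, edgeR). PARVA was at 42.7, 48.4 and 45.5 CPM in siCT and 41.8, 41.4 and 39.9 CPM in siPDCD4, again without overlap (-0.15 ± 0.10, adjusted p = 0.795, edgeR). LIMS1 had 0.00 ± 0.09, and whether it shared reads with its close relatives LIMS3 and LIMS4 was not tested.

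VASP, ENAH and LPP, the genes listed in 1 group with zyxin, were all slightly below 0, except that LPP was at 0.01 without the length offset and at 0.0036 without siPDCD4 replicate 1. VASP was at 75.8, 71.2 and 73.6 CPM in siCT and 65.9, 69.4 and 70.7 CPM in siPDCD4, which did not overlap (-0.10 ± 0.08, adjusted p = 0.877, edgeR). ENAH, the gene of Mena, had -0.04 ± 0.08 and LPP had -0.06 ± 0.09.

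Groups that did not overlap were thus found for 7 of the 34 genes, 6 lower in siPDCD4 (ITGB1, ITGA1, CAV1, ILK, PARVA and VASP) and 1 higher (VCL). This is 20.6% of the genes, where 13.9% of all tested genes had groups without overlap, 7.14% lower and 6.81% higher. For ILK, PARVA, VASP and VCL the 95% interval included 0.

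The control libraries were not alike for these genes. siCT replicate 3 was the highest control for 24 of the 34 genes, or 70.6%, against 35.9% of all tested genes, and siCT replicate 1 was the lowest for 19. The 34 genes held 0.840%, 0.887% and 0.908% of the matched counts in siCT replicates 1 to 3 and 0.829%, 0.810% and 0.843% in siPDCD4. Without siCT replicate 3 the median log2 fold change of the 34 genes was 0.03 and 16 were below 0. The sign of the median therefore rested on that library, and its part in the single values was not tested beyond leaving it out.

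**Figure D4:**
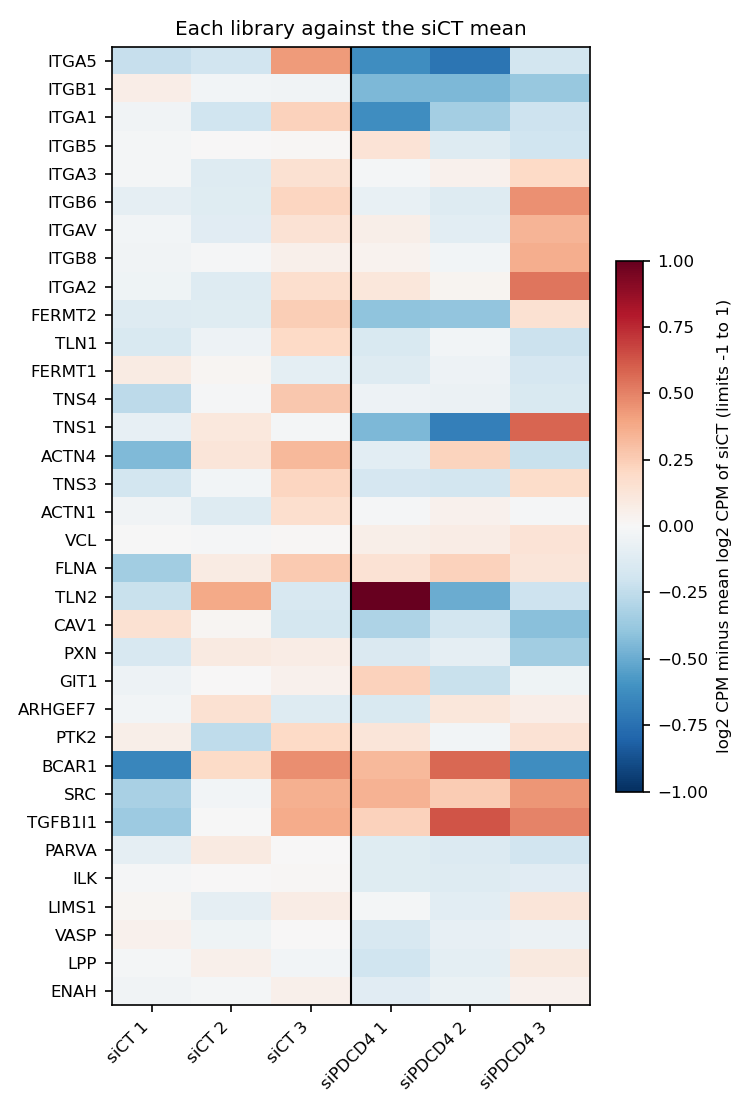
Log2 CPM of each gene in each library minus the mean of the 3 siCT libraries, with colours limited to -1 to 1 (TLN2 in siPDCD4 replicate 1 lies beyond the upper limit). siCT replicate 3 is the highest control for 24 of the 34 genes, and ITGB1 is lower in all 3 siPDCD4 libraries.

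Per length, the 34 genes ranged in siCT from 0.942 TPM for TNS1 to 525 TPM for CAV1, with a median of 30.4 TPM. There were 7 genes above 100 TPM, which were CAV1, ITGB1, ENAH, FLNA, TNS4, ITGA3 and ACTN1, and 5 under 10 TPM, which were PARVA, TGFB1I1, BCAR1, TLN2 and TNS1. The other 22 genes lay between 10.9 TPM for ITGA1 and 92.6 TPM for ITGA5. CAV1 was at 525 ± 64.4 TPM in siCT and 432 ± 37.3 TPM in siPDCD4 (SD, n = 3) and came before ITGB1 in every library. ENAH, FLNA and TNS4, at 197 ± 8.06, 177 ± 37.4 and 174 ± 31.0 TPM in siCT, did not differ beyond their spread. Some of these levels lean on short transcripts, since a transcript of 888 bases held 42.0% of the TPM of ENAH in siCT and one of 601 bases held 55.7% of that of ITGA1.

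**Figure D5:**
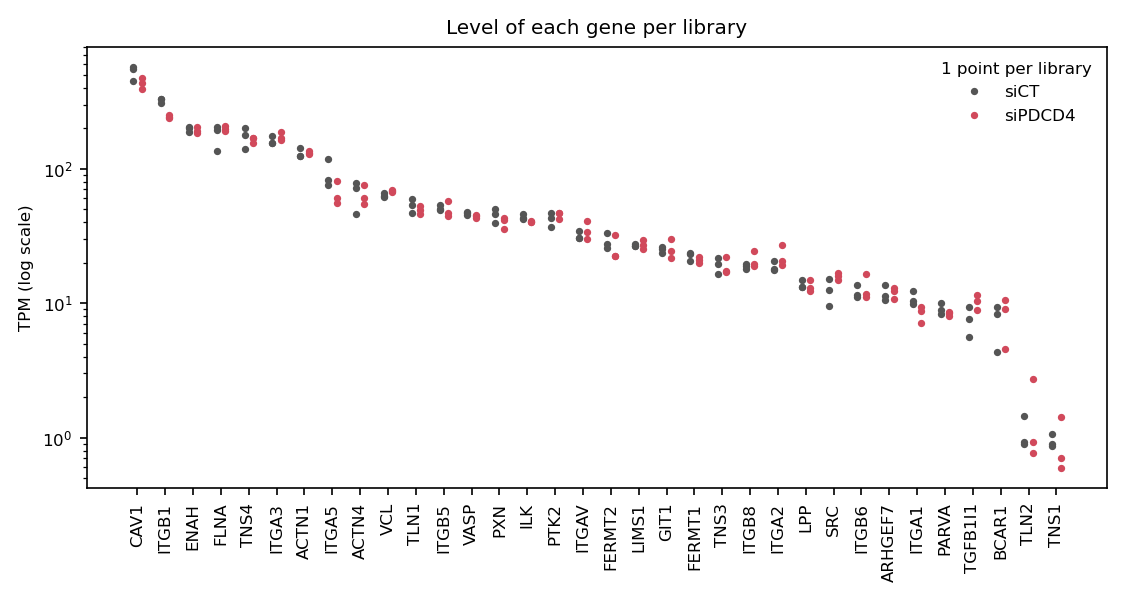
TPM (log axis) of the 34 genes in each library, 1 point per library, ordered by the siCT mean. CAV1 and ITGB1 are the most abundant, and TLN2 and TNS1 lie near 1 TPM with a wide scatter.

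The transcripts of these genes were tested singly to see whether a change was hidden in the sums. Of 548 matched transcripts 218 passed the filter, and none of them was called by edgeR, as was none of all 47375 transcripts tested (0%). Because it called no transcript of any gene, the silenced PDCD4 included, this fit cannot decide whether a change was hidden in the sums. At an unadjusted p under 0.05 there were 11, or 5.05%, against 3.11% of all transcripts. DESeq2 called 3 of the 218, namely ITGB1-201, PTK2-202 and LIMS1-204, and 1.13% of all transcripts.

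ITGB1-201, the canonical transcript that carries the coding bases shown above, held 89.6% of the ITGB1 counts in siCT and 90.1% in siPDCD4, with a log2 fold change of -0.41 ± 0.09 (adjusted p = 0.620, edgeR). The ITGB1 sum thus followed its main transcript, whose share was nearly equal in both groups. PTK2-202 held 8.91% of the PTK2 counts in siCT and 17.0% in siPDCD4 (log2 fold change 0.99 ± 0.27, adjusted p = 1.00 in edgeR and 0.0438 in DESeq2). LIMS1-204 had 29.2, 16.6 and 20.4 estimated counts in siCT and 0 in all 3 siPDCD4 libraries.

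Other transcripts with small p-values were those of ITGA1, PXN and ILK. ITGA1-208, annotated as subject to nonsense-mediated decay, held 78.0% of the ITGA1 counts in siCT and 76.6% in siPDCD4 and had a log2 fold change of -0.38 ± 0.11. PXN-222, of the same class, had -1.04 ± 0.34, and ILK-201, the canonical transcript, had -0.35 ± 0.12 while its share was 71.0% in siCT and 61.9% in siPDCD4. None of the 3 passed in edgeR or DESeq2. In 27 of the 34 genes 1 transcript held at least 50% of the counts in siCT.

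Isoform shares could be compared in 29 of the 34 genes, and none was called, where 0.251% of all genes were. The count at an unadjusted Simes p under 0.05 was 1 of 29, BCAR1, or 3.45%, against 2.92% of all genes, and a gene-level F test called none either. BCAR1-205 had 162 and 72.4 estimated counts in siPDCD4 replicates 1 and 2 and 0 in the other 4 libraries, so that the third siPDCD4 library looked like the controls. TLN2-209 likewise had 25.4 and 46.7 estimated counts in siPDCD4 replicates 2 and 3 and 0 elsewhere. TNS1-223 was at 0 in all siPDCD4 libraries but also in siCT replicate 1.

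Genes around this machinery were taken from 5 lists with 159 genes, of which 136 were tested. None passed in edgeR in either direction. An unadjusted p under 0.05 was found for 16, or 11.8%, against 8.62% of all genes, and DESeq2 called 2, or 1.47%, against 1.41% of all genes. Of the 136 genes 78, or 57.4%, were below 0, where all genes gave 51.3%, and the median log2 fold change was -0.03.

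The integrin ligands of the extracellular matrix held the smallest p-values. Of 25 tested ligands 18, or 72.0%, were below 0, where all genes gave 51.3%, and the median was -0.08, against -0.01 over all genes. The 2 genes called by DESeq2 were both here, which is 8% of the list against 1.41% of all genes. LAMA3 codes for a laminin alpha chain that epithelial cells lay down in the basement membrane and bind through integrins. It was at 466, 466 and 520 CPM in siCT and 390, 373 and 387 CPM in siPDCD4 (log2 fold change -0.34 ± 0.08, adjusted p = 0.154 in edgeR and 0.0111 in DESeq2). LTBP1, which holds latent TGF-beta in the matrix, was at 162, 145 and 160 CPM in siCT and 124, 127 and 122 CPM in siPDCD4 (-0.32 ± 0.08, adjusted p = 0.180 in edgeR and 0.0357 in DESeq2). In both genes all siPDCD4 libraries lay below all controls. THBS1, the gene of thrombospondin 1, had a log2 fold change of -0.30 ± 0.09 and did not pass in either tool.

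Of the other integrin chains 10 of 17 were tested, 4 of them below 0. ITGA6, the laminin-binding chain of hemidesmosomes, was at 680, 650 and 586 CPM in siCT and 733, 748 and 705 CPM in siPDCD4, a difference in the other direction from ITGB1 (0.19 ± 0.08, adjusted p = 0.568, edgeR). ITGA10, a collagen receptor chain, had -0.32 ± 0.13 (adjusted p = 0.509, edgeR), and ITGB2 and ITGAX, chains known from leukocytes, had 0.22 ± 0.18 and 0.66 ± 0.67.

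Of the other adhesion adaptors 39 were tested and 23 were below 0. SORBS2, a vinculin-binding scaffold, was at 11.6, 10.2 and 12.1 CPM in siCT and 4.74, 7.11 and 8.77 CPM in siPDCD4 (log2 fold change -0.72 ± 0.22, adjusted p = 0.290, edgeR). RSU1, which binds PINCH1, had -0.22 ± 0.10, KANK1, which binds talin, had -0.17 ± 0.08, and the LIM-domain gene FHL2 had 0.25 ± 0.11.

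Of the other signalling genes 38 were tested and 18 were below 0. VAV2, an exchange factor for small GTPases, was at 55.8, 63.5 and 61.1 CPM in siCT and 73.1, 72.5 and 70.7 CPM in siPDCD4 (log2 fold change 0.26 ± 0.09, adjusted p = 0.365, edgeR). The adaptor GRB2 had -0.22 ± 0.09, ELMO2, a partner of DOCK proteins in Rac activation, had -0.37 ± 0.15, and the SRC-family kinase FYN, near 1 CPM, had -0.97 ± 0.40.

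Of the actin and myosin genes 24 were tested and 15 were below 0. The calponin gene CNN2 was at 211, 226 and 222 CPM in siCT and 266, 268 and 252 CPM in siPDCD4 (log2 fold change 0.26 ± 0.08, adjusted p = 0.273, edgeR). The myosin light chain genes MYL9 and MYL6 had -0.53 ± 0.19 and -0.19 ± 0.09, and the tropomyosin gene TPM1 had -0.34 ± 0.12. Each of the 4 had an adjusted p above the threshold in DESeq2 as well.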

How the data were processed

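The 6 libraries, 3 per group, came from total RNA of MCF10A cells, and the groups were taken from the sample titles. The authors quantified the reads with Salmon on GRCh38 (version not given in the sources used here) and deposited estimated counts, effective lengths and TPM per transcript. Of 194142 transcripts 181244 were matched to GENCODE 44. The 12898 others, with between 5.47% and 6.21% of the counts, were not analysed here.

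Gene sums, rounded, entered the quasi-likelihood test of edgeR 4.0.16 (R 4.3.3) with robust estimation, TMM factors, an offset for transcript length and the filter filterByExpr. Group was the single factor. Adjusted p-values are those of Benjamini and Hochberg across the genes tested. CPM were computed here with the same factors and offset. Beside a log2 fold change, ± gives the SE, and elsewhere the SD. Transcripts were tested likewise without the offset, and isoform shares with diffSpliceDGE on transcripts with at least 5% of a gene's counts. DESeq2 1.42.0, limma 3.58.1, other scalings and filters, a replicate block and each library left out served as alternatives. The scripts were tested on simulated data. Tables were read with pandas 2.3.3.

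Members and lists were chosen with earlier results of these data known. Values per library are given for the 12 genes with the smallest p, the integrin chains and genes whose groups did not overlap. From each list the 4 genes with the smallest p are named, save for 1 ligand gene that is not reported here.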

Additional observations from a re-analysis of the deposited data

How the results depend on the processing

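The number of genes called was 184 with DESeq2, 108 without the expression filter, 128 without the length offset and 99 at an FDR of 10%, against 56 as reported, and between 17 and 40 with 1 library left out. Of the 34 genes, 1 was called (ITGB1 each time) with DESeq2, limma-voom, no expression filter, no length offset, upper quartile factors, offsets from the filtered genes and at an FDR of 10%, and between 0 and 1 with 1 library left out, the 1 being without siCT replicate 3. Of the pathway genes, 2 were called with DESeq2 and 1 without the length offset. The 34 genes' median log2 fold change lay between -0.071 and 0.028 with 1 library left out, the upper value without siCT replicate 3. DESeq2 called 537 transcripts, 3 of them of these genes, and a minimum of 10 counts in every library gave 5 transcripts. Isoform shares were called in 7 genes with transcripts of at least 10% of the counts, 43 with the F test and between 36 and 46 with 1 library left out, against 23. The cause of these differences was not tested.

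The fit reported above did not pair the libraries by replicate number. Deviations of same-numbered libraries correlated at 0.089, 0.13 and 0.20, and those of differently numbered libraries at -0.21 to 0.11. siPDCD4 replicate 1 correlated best with siCT replicate 2, while siPDCD4 replicates 2 and 3 correlated best with the control of the same number. Whether the groups share a replicate effect was not tested. In a fit with a replicate block, 102 genes were called, 2 of them ITGB1 and ITGA5 (log2 fold changes -0.43 and -0.51, adjusted p = 0.0457 and 0.0196, edgeR), and 2 pathway genes.

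Of 544 values of single genes under an alternative, 486 kept direction and side of the threshold, 9 passed it, and 49 turned direction, in 16 genes, none of which was called under any alternative. Without the length offset ACTN1 was at -0.040, TNS1 at 0.090, GIT1 at 0.23, ARHGEF7 at -0.024, LIMS1 at 0.015 and LPP at 0.013. GIT1 was at 0.0039 with DESeq2 and with RLE factors, 0.0024 with limma-voom, 0.0013 with offsets from the filtered genes and 0.0047 with upper quartile factors. LIMS1 was at 0.0047, 0.0045, 0.0038, 0.0020 and 0.0051 with the same settings in that order, and ARHGEF7 at -0.00068 with limma-voom. With 1 library left out the ranges were -0.014 to 0.20 for ITGAV, -0.17 to 0.018 for ITGB5, -0.095 to 0.22 for ITGB6, -0.36 to 0.67 for TLN2, -0.058 to 0.090 for ACTN1, -0.25 to 0.11 for ACTN4, -0.012 to 0.28 for FLNA, -0.56 to 0.14 for TNS1, -0.17 to 0.057 for TNS3, -0.22 to 0.042 for TNS4, -0.046 to 0.17 for PTK2, -0.15 to 0.40 for BCAR1, -0.13 to 0.10 for GIT1, -0.054 to 0.086 for ARHGEF7, -0.054 to 0.050 for LIMS1 and -0.14 to 0.0036 for LPP. Of the genes that kept their direction, with 1 library left out ITGA2 ranged from 0.080 to 0.33, ITGA3 from 0.0098 to 0.15, ITGA5 from -0.70 to -0.28, ITGB8 from 0.016 to 0.21, TLN1 from -0.21 to -0.029, FERMT1 from -0.17 to -0.080, FERMT2 from -0.39 to -0.065, SRC from 0.18 to 0.52, TGFB1I1 from 0.27 to 0.64, PXN from -0.27 to -0.11 and ENAH from -0.079 to -0.0088. PDCD4 was called in all analyses. The offsets from the filtered genes and a fit without robust estimation were chosen after seeing the data.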
